A study of Mus musculus with 6 samples.

Results

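The genes described here are 50 genes of the Wnt pathway, covering ligands, receptors, secreted inhibitors, cytoplasmic components and the TCF/LEF transcription factors. They were chosen by name, with earlier results of these data known, and taken where an array row named that gene alone. Such a row was found for 49 of the 50, among 19938 genes with a single-gene row. Tcf7 had none and was not analysed here. Whole brains were taken from mouse embryos at embryonic day 16.5, and the RNA of each was read on 1 array of the type Affymetrix Mouse Gene 1.0 ST. The 3 control embryos were wild type. The other 3 carried Tdp2Δ1-3, an allele named for the loss of exons 1 to 3 of Tdp2, the phosphodiesterase that frees trapped topoisomerase II from the ends of DNA breaks. The labels give no treatment and name no strain, sex or litter. The comparison asks which transcripts of the embryonic brain differ when Tdp2 is lost.

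Wnt proteins are secreted, lipid-modified signals that bind Frizzled receptors and the co-receptors LRP5 and LRP6. In the branch that works through β-catenin, Dishevelled then restrains a complex of Axin, APC and kinases that otherwise sends β-catenin to degradation. The spared β-catenin enters the nucleus and turns TCF/LEF factors into activators of genes such as Axin2 and Nkd1, which feed back as inhibitors. In the embryonic brain the pathway patterns the dorsal midline, the hippocampal primordium and the boundary of midbrain and hindbrain, and it acts on neural progenitors and on growing blood vessels.

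Each value was a log2 value centred on the gene's median over the 6 arrays. A gene's level was therefore removed, levels of different genes cannot be compared, and the tissue cannot be checked against the levels of its markers. Centring on 6 arrays also makes the middle 2 values of a gene equal in size and opposite in sign, which is why the highest wild-type and lowest mutant value often mirror each other below. Array medians lay between -0.011 and 0.014. Tdp2 itself was at 0.90, 1.10 and 1.34 in wild-type brains and at -1.05, -0.90 and -0.94 in mutant brains, a difference of -2.07 ± 0.10 (SE, limma adjusted p = 0.00035). In such bulk tissue, fewer cells of a type and less RNA per cell cannot be told apart. With 3 arrays for each genotype, the precision of all differences is limited by that number. The p-values set the difference between genotypes against the spread between these brains, which limma moderates with all tested rows. The series text says that the brains came as 3 independent pairs of the 2 genotypes. Neither it nor the labels say which brains formed a pair or what a pair shared.

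TCF/LEF factors recognise a short core that is spelled here as CTTTGA or CTTTGT and was searched on both strands, with no overlap between the 2 spellings. The 250 bases before the start site were read from RefSeq (GRCm38.p6) for 33 of the 50 genes, in 42 windows. Fzd2, Rspo2 and Rspo3, which rose in mutant brains as described below, had no window and were not searched. At least 1 match lay in the windows of 11 of these 33 genes, and in those of 30.8% of all 27025 genes with a window. Over windows, matches were found in 11 of 42 of the listed genes' windows and in 27.6% of all 32851. A match is a description of the letters and not a binding site. The upstream stretches shown are those of Wnt8b (chr19:44493222-44493471, plus strand), the ligand that rose in mutant brains, and of Dkk1 (chr19:30549497-30549746, minus strand), a secreted inhibitor that β-catenin is known to induce. Beside them stand Axin2 (chr11:108920099-108920348, plus strand), the widely used readout of the pathway, and the first of the 2 start sites of Ctnnb1 (chr9:120933150-120933399, plus strand), the β-catenin gene. Capitals mark the matches, 1 in Wnt8b and 3 in Dkk1, and the other stretches hold none.
Wnt8b: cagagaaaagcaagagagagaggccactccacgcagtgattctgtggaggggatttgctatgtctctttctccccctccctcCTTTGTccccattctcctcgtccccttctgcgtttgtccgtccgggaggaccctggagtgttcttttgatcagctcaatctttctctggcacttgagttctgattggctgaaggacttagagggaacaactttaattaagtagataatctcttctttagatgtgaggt
Dkk1: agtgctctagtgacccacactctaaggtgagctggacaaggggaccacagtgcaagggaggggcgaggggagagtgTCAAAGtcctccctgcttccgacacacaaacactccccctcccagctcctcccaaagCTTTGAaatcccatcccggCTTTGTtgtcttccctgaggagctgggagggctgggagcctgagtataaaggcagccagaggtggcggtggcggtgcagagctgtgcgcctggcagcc
Axin2: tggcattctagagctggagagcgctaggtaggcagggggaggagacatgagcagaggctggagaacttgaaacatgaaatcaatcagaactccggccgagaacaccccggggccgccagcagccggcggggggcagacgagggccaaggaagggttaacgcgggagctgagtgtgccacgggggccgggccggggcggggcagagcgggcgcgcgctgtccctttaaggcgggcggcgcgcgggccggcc
Ctnnb1: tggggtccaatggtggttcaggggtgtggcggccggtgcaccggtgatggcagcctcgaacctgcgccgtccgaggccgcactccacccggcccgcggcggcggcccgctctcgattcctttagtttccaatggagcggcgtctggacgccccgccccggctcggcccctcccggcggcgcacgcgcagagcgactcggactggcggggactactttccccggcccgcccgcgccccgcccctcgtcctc

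Of the 49 genes measured, 4 rose in the mutant brains and none fell. They were the ligand gene Wnt8b, the receptor gene Fzd2 and the R-spondin genes Rspo2 and Rspo3, with rises of 0.24 to 0.46 on the log2 scale, or 1.18-fold to 1.38-fold. The 4 genes are 8.16% of the 49, where 6.47% of all 23410 rows that name a gene passed in either direction, 2.34% higher and 4.13% lower. Over both directions the share of the Wnt genes that passed was thus near that of all rows. At the limit of 1.5-fold that the series text sets, none of the 49 passed, against 0.641% of all rows. At an unadjusted p under 0.05, 14 of the 49 were higher and 3 lower, and 21.8% of all rows were past that limit. The median difference of the 49 genes was 0.06, and that of all rows was 0.01. The groups did not overlap for 19 of the 49 genes, 16 higher and 3 lower in mutant brains, where 25.7% of all rows had groups apart, 13.1% higher and 12.6% lower. Positive differences numbered 33 of 49, and 56.8% of all rows had one.

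**Figure D1:**
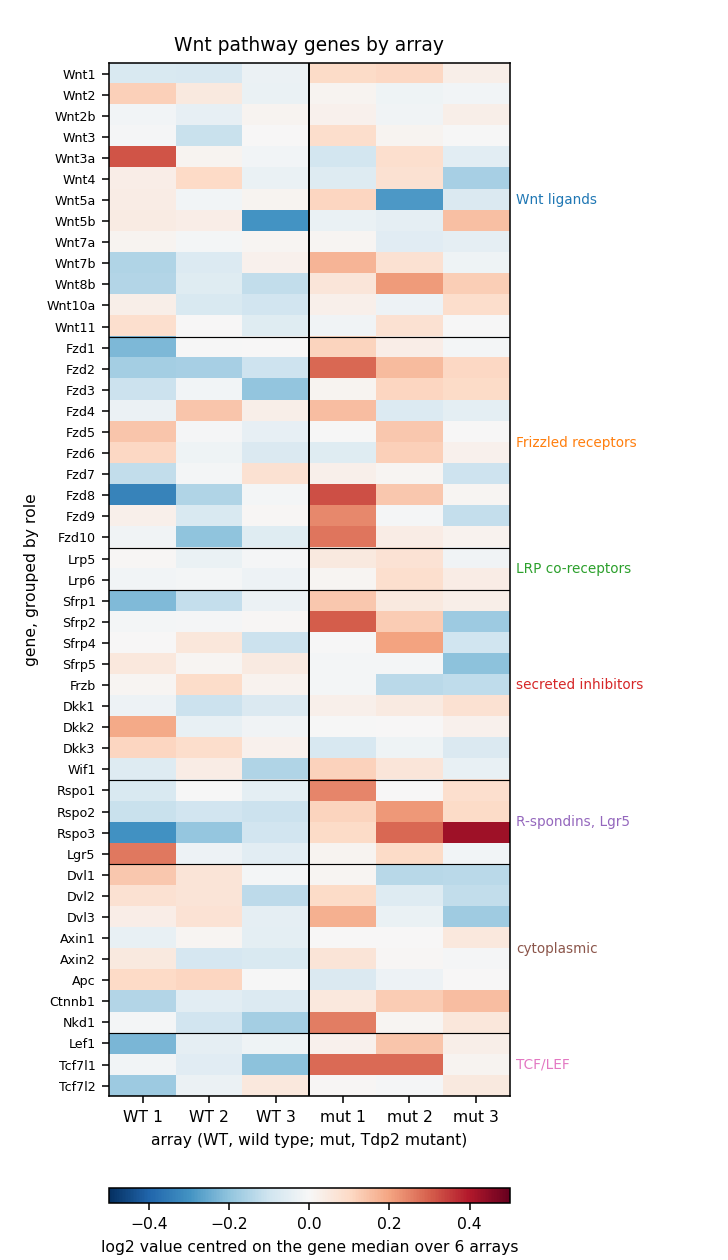
Centred log2 values of the 49 Wnt pathway genes (rows, grouped by role) in the 3 wild-type and 3 mutant arrays (columns), with red above and blue below the gene's own median. Rspo3 runs from -0.30 in wild-type replicate 1 to 0.42 in mutant replicate 3, while most genes stay near 0 in every array.

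Among the ligands, Wnt8b was higher in all mutant than in all wild-type brains. Wnt8b is expressed at the cortical hem and in the hippocampal primordium of the embryonic forebrain. Its values were -0.15, -0.06 and -0.12 in wild-type brains and 0.06, 0.21 and 0.12 in mutant brains. The difference was 0.24 ± 0.05 (SE over 3 brains of each genotype) or 1.18-fold (limma adjusted p = 0.036). The other 12 ligand genes did not pass. Wnt1, the ligand of the boundary of midbrain and hindbrain, was the second whose groups did not overlap. Its wild-type values lay between -0.08 and -0.03 and its mutant values between 0.03 and 0.10, a difference of 0.14 (limma adjusted p = 0.11). Of all rows, 13.1% had groups apart with higher values in mutant brains.

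The remaining ligands showed overlapping groups. Wnt7b, which with Wnt7a guides the growth of brain blood vessels, differed by 0.14 (95% interval -0.0094 to 0.29), and Wnt7a by -0.03 (-0.13 to 0.06). Wnt3a, a ligand of the cortical hem that is needed for the hippocampus, had 1 high wild-type array. Its values were 0.31, 0.01 and -0.01 in wild-type brains and -0.09, 0.08 and -0.05 in mutant brains, with a difference of -0.12 (95% interval -0.34 to 0.09). Wnt2b, also of the hem, differed by 0.03. Wnt5b had 1 low wild-type array, with values of 0.04, 0.03 and -0.30 in wild-type brains and -0.03, -0.04 and 0.15 in mutant brains. Its difference was 0.10, and that of Wnt5a, which mostly signals without β-catenin, was -0.10. The differences of Wnt2, Wnt3, Wnt4, Wnt10a and Wnt11 lay between -0.09 and 0.08. A second array row of Wnt4 gave -0.02, with the same sign and no call.

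The Frizzled genes held the clearest rise among receptors. Fzd2 stood at -0.17, -0.17 and -0.10 in wild-type brains and at 0.29, 0.16 and 0.10 in mutant brains. All mutant brains were above all wild types, and the difference of 0.33 ± 0.06 (SE) was 1.26-fold (limma adjusted p = 0.017). Fzd8, a receptor gene of forebrain progenitors, had a difference of like size but a wider spread. Its values were -0.33, -0.15 and -0.01 in wild-type brains and 0.32, 0.14 and 0.01 in mutant brains. The groups met closely without overlap, and the difference of 0.32 ± 0.10 (SE) did not pass (limma adjusted p = 0.10).

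Groups were also apart for Fzd3, which acts in axon guidance, and for Fzd10. Fzd3 had a difference of 0.18 (limma adjusted p = 0.12) and Fzd10 of 0.20 (0.19). Fzd1 differed by 0.12 with overlapping groups. The differences of Fzd4, Fzd5, Fzd6, Fzd7 and Fzd9 lay between -0.03 and 0.06. Fzd4 is also the receptor for Norrin in vessels of the retina and brain. Over the 10 Frizzled genes the median was 0.09, and the groups did not overlap for 4 of them, all higher in mutant brains, where 13.1% of all rows were apart in that direction. Mutant replicate 1 held the highest value in 6 of the 10, and it held the highest value in 14.2% of all rows. The co-receptor genes differed little, Lrp5 by 0.05 (95% interval -0.06 to 0.15) and Lrp6 by 0.06 (-0.04 to 0.16).

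**Figure D2:**
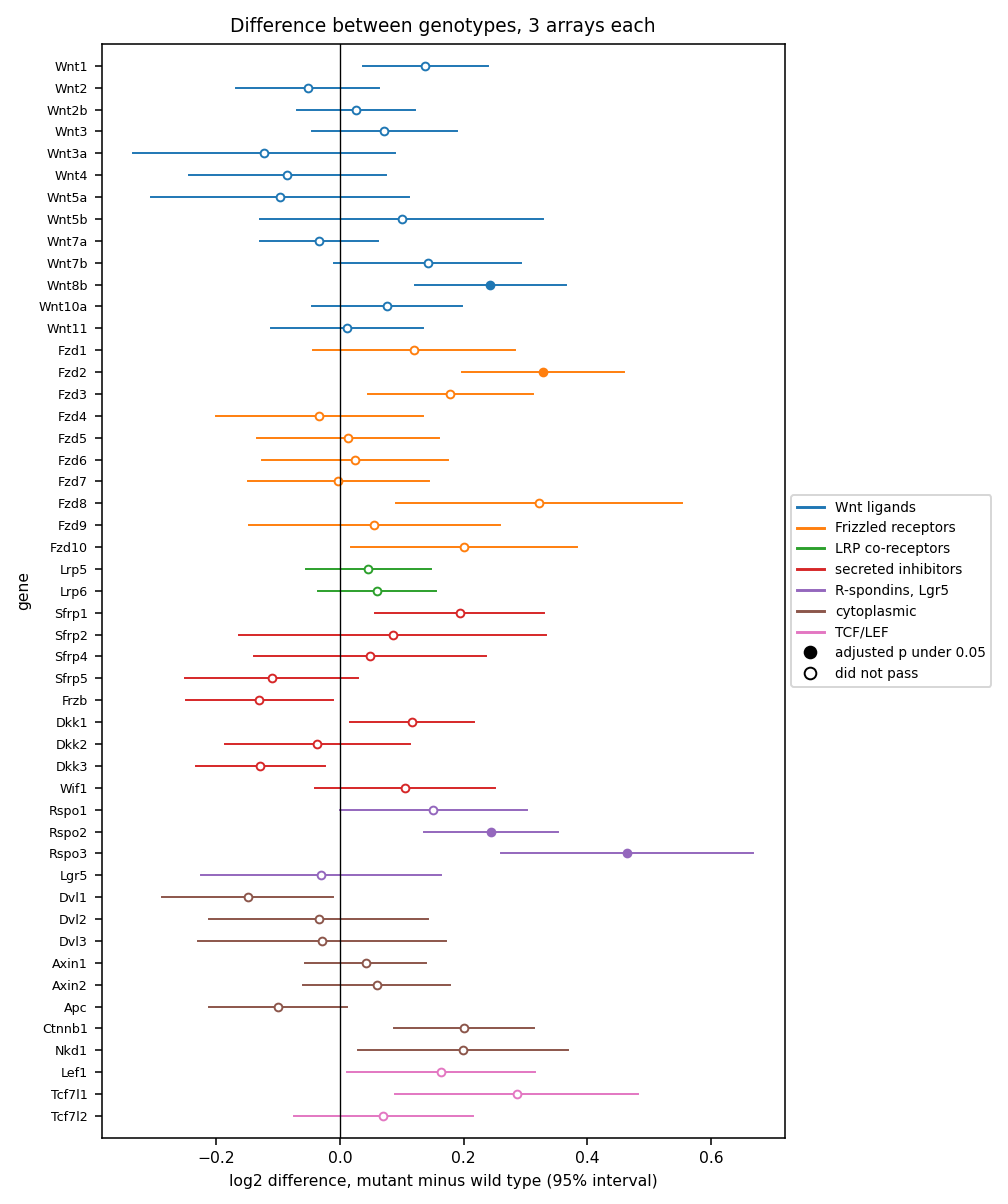
Difference of each of the 49 genes, mutant minus wild type, on the log2 scale with limma's 95% interval, coloured by role, where filled points passed an adjusted p under 0.05. The filled points are Wnt8b, Fzd2, Rspo2 and Rspo3, all to the right of 0.

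R-spondins are secreted proteins that amplify Wnt signals. They bind receptors of the Lgr family and keep the ubiquitin ligases Znrf3 and Rnf43 from clearing Frizzled from the cell surface. Rspo3 showed the largest difference of the 49 genes. It stood at -0.30, -0.19 and -0.10 in wild-type brains and at 0.10, 0.29 and 0.42 in mutant brains. Every mutant brain was above every wild type, and the rise was 0.46 ± 0.09 (SE), 1.38-fold (limma adjusted p = 0.024).

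Rspo2 rose less but with little spread among the wild types. Its values were -0.11, -0.09 and -0.11 in wild-type brains and 0.11, 0.21 and 0.09 in mutant brains, a rise of 0.24 ± 0.05 (SE), 1.18-fold (limma adjusted p = 0.025). Rspo1 differed by 0.15 without passing (limma adjusted p = 0.23), and its groups were apart by a hair, with -0.0012 as the highest wild-type and 0.0012 as the lowest mutant value. Lgr5, a receptor for R-spondins and a target of the pathway, differed by -0.03 (95% interval -0.23 to 0.16), and 1 wild-type array was high at 0.26. The Lgr and Znrf3/Rnf43 partners outside the 50 genes did not pass either, with 0.05 for Lgr6, -0.06 for Znrf3, -0.0054 for Rnf43 and -0.25 for Lgr4 (limma adjusted p = 0.12).

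**Figure D3:**
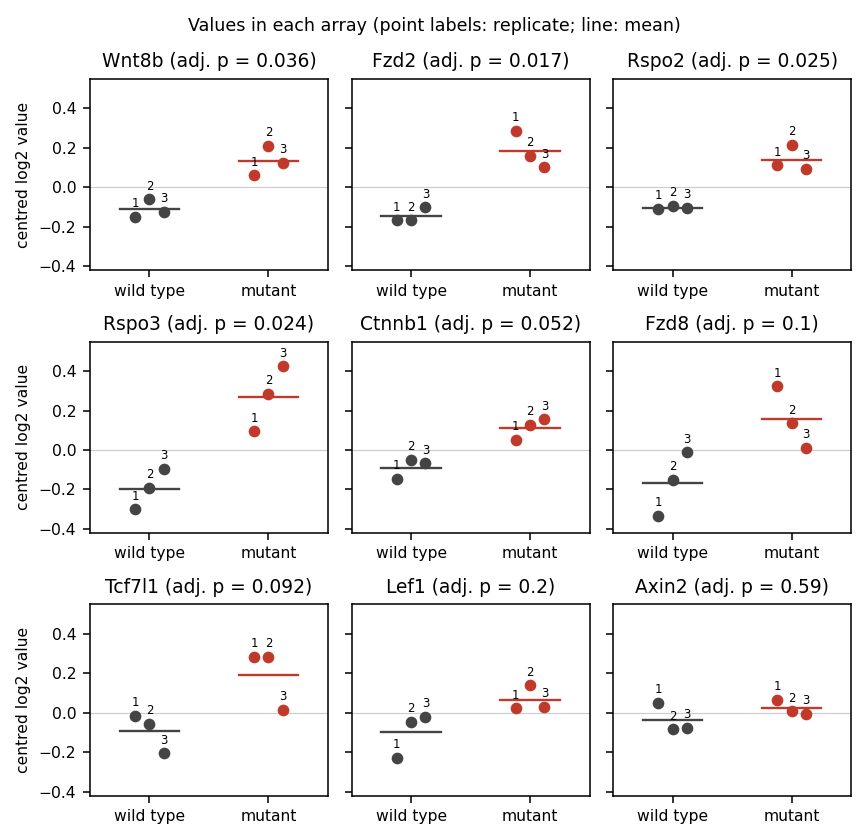
Centred log2 values of 9 genes in each array, with the replicate number at each point, a line at the mean of the 3 arrays and the limma adjusted p in each panel title. The groups are apart in all panels but that of Axin2, and the 4 genes that passed are Wnt8b, Fzd2, Rspo2 and Rspo3. Most of the 9 were shown because they passed or had groups apart by at least 0.25. The groups were apart for 19 of all 49 genes and for 25.7% of all rows.

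Of the 9 secreted inhibitors, none passed in the limma fit. At an unadjusted p under 0.05, 2 were higher and 2 lower, where 21.8% of all rows were past that limit. Sfrp1, a decoy that binds Wnt proteins outside the cell, differed by 0.19 (limma adjusted p = 0.097). It ranged from -0.22 to -0.03 in wild-type brains and from 0.03 to 0.13 in mutant brains. Dkk1, which blocks LRP co-receptors, differed by 0.12 (limma adjusted p = 0.16) with groups apart. The groups of 3 inhibitors were apart in the other direction. Of all rows, 12.6% were apart with lower and 13.1% with higher values in mutant brains. Frzb, a decoy of the same family as Sfrp1, differed by -0.13 (limma adjusted p = 0.19), Dkk3, a divergent member of the Dickkopf family, by -0.13 (0.14) and Sfrp5 by -0.11 (0.35).

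Sfrp2 varied most between brains of 1 genotype among all 49 genes. Its values were -0.0088, -0.0046 and 0.0046 in wild-type brains and 0.30, 0.13 and -0.18 in mutant brains, so that the mutants lay both above and below the wild types. The difference was 0.08 (95% interval -0.16 to 0.33). Sfrp4, Dkk2 and Wif1, which binds Wnt proteins directly, differed by 0.05, -0.04 and 0.10 with overlapping groups.

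In the cytoplasm, none of the 8 genes passed in the limma fit. At an unadjusted p under 0.05, 2 were higher and 1 lower, where 21.8% of all rows were past that limit. Ctnnb1, which encodes β-catenin, came closest. Its values were -0.15, -0.05 and -0.07 in wild-type brains and 0.05, 0.13 and 0.16 in mutant brains. All mutants were above all wild types, with a difference of 0.20 ± 0.05 (SE), 1.15-fold, just outside the limit (limma adjusted p = 0.052). Nkd1, a feedback inhibitor that binds Dishevelled, differed by 0.20 (limma adjusted p = 0.16) with groups apart.

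Axin2, the feedback gene most often read as a sign of pathway activity, showed overlapping groups. Its values were 0.05, -0.08 and -0.08 in wild-type brains and 0.07, 0.0073 and -0.0073 in mutant brains. The difference was 0.06 (95% interval -0.06 to 0.18, limma adjusted p = 0.59). Axin1 and Apc, both of the complex that degrades β-catenin, differed by 0.04 and -0.10. Of the Dishevelled genes, Dvl1 differed by -0.15 (limma adjusted p = 0.19), Dvl2 by -0.03 and Dvl3 by -0.03, all with overlapping groups.

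The 3 TCF/LEF genes measured had positive differences that did not pass in the limma fit. An unadjusted p under 0.05 was reached by 2 of them. Of all rows, 56.8% had a positive difference and 21.8% were past that limit. Tcf7l1, which mainly represses its targets, stood at -0.01, -0.05 and -0.21 in wild-type brains and at 0.28, 0.28 and 0.01 in mutant brains. Its groups were apart only narrowly, since mutant replicate 3 lay far below the other mutants, and the difference was 0.29 ± 0.09 (SE, limma adjusted p = 0.092). Lef1, a target as well as an effector of the pathway, stood at -0.23, -0.05 and -0.02 in wild-type brains and at 0.02, 0.14 and 0.03 in mutant brains. That difference was 0.16 ± 0.07 (SE, limma adjusted p = 0.20). Tcf7l2, a strong marker of the thalamus at this age, differed by 0.07 (95% interval -0.08 to 0.22).

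The calls of the 4 genes depended on single arrays. None of the 49 passed when any of wild-type replicate 1, wild-type replicate 2 and mutant replicate 2 was left out. Of all rows, 3.10%, 1.43% and 0.619% passed in these 3 fits. Fzd2 passed in 3 of the 6 fits with 1 array left out and had adjusted p values of 0.052, 0.082 and 0.079 in the 3 just named. Rspo3 passed when wild-type replicate 3 or mutant replicate 1 was left out, and reached an adjusted p of 0.064 without mutant replicate 3. Wnt8b and Rspo2 passed only without mutant replicate 1 and reached at most 0.14 and 0.10 otherwise. The differences themselves moved less, from 0.39 to 0.55 for Rspo3, 0.28 to 0.37 for Fzd2, 0.20 to 0.28 for Wnt8b and 0.21 to 0.27 for Rspo2. Ctnnb1 passed without mutant replicate 1 (limma adjusted p = 0.034) and Tcf7l1 without mutant replicate 3 (0.044).

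**Figure D4:**
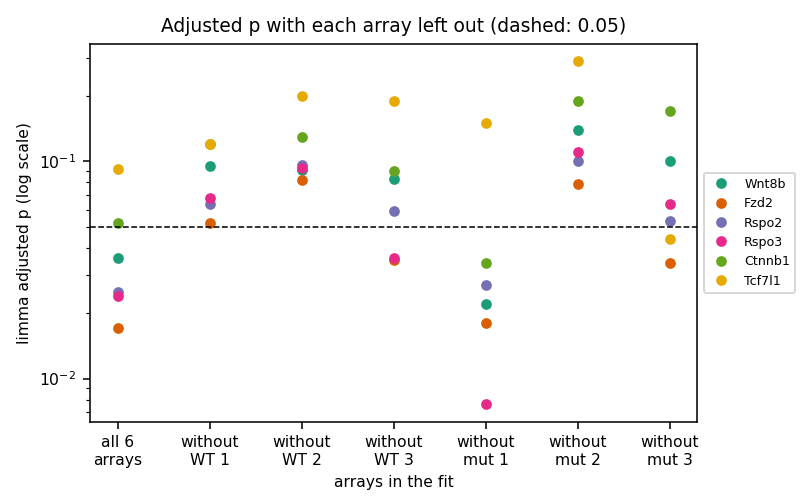
Limma adjusted p (log axis) of the 4 genes that passed and of Ctnnb1 and Tcf7l1, with all 6 arrays and with each array left out, with a dashed line at 0.05. All 4 genes lie above the line in the fits that lack WT 1, WT 2 or mut 2.

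A second list held 80 further genes of the pathway, from ligand export to the planar polarity branch, and all 80 were measured. Of these, 3 rose and none fell, 3.75%, again near the 6.47% of all rows, and the median was 0.0034. At an unadjusted p under 0.05, 11 were higher and 9 lower, where 21.8% of all rows were past that limit. Gpc4, a glypican whose sugar chains bind Wnt and other signals at the cell surface, rose by 0.43 ± 0.08 (SE), 1.35-fold (limma adjusted p = 0.022). It stood at -0.42, -0.15 and -0.14 in wild-type brains and at 0.14, 0.25 and 0.20 in mutant brains, with wild-type replicate 1 far below the rest.

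Shisa2, which holds back the maturation of Frizzled receptors, rose by 0.24 ± 0.05 (SE), with values from -0.12 to -0.08 in wild-type brains and from 0.08 to 0.18 in mutant brains (limma adjusted p = 0.025). Hbp1, a repressor that binds TCF factors, rose by 0.27 ± 0.06 (SE, limma adjusted p = 0.044), and did not pass with array medians set equal (0.050), after cyclic loess (0.052) or with all array rows tested (0.060). Of these 3, none passed in the fits that lacked wild-type replicate 2 or mutant replicate 2, where adjusted p lay between 0.06 and 0.18. Gpc4 also lost its call without mutant replicate 3 (0.070), Shisa2 without wild-type replicate 1 (0.057) or 3 (0.064), and Hbp1 in every such fit but that without mutant replicate 1. The next by p were the co-repressor genes Tle1 (0.18, limma adjusted p = 0.053, and 0.046 without mutant replicate 1) and Ctbp2 (0.22, 0.063) and the ligand gene Wnt9a (0.19, 0.064).

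Genes widely used as transcriptional targets of β-catenin moved in no common direction. Of 17 measured, 8 had positive and 9 negative differences, with a median of -0.0054, where 56.8% of all rows had a positive difference. The list shares 5 measured genes with the 49 and 4 with the second list. Ccnd1, the cyclin D1 gene, was the single gene of the list that passed, 5.88% of the list and near the 6.47% of all rows. Ccnd1 stood at -0.23, -0.22 and -0.17 in wild-type brains and at 0.22, 0.18 and 0.17 in mutant brains. The rise was 0.40 ± 0.04 (SE), 1.32-fold (limma adjusted p = 0.0048), and it passed with any 1 array left out (adjusted p at most 0.037).

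Myc, another of these targets, had a difference of -0.33 (limma adjusted p = 0.085), with -0.03, -0.34 and -0.42 in mutant brains and 0.03 to 0.13 in wild-type brains. That of Myc was -0.44 without mutant replicate 1, where it passed (0.006), and -0.02 after cyclic loess (0.91). Nrcam, an adhesion gene, differed by -0.13 (limma adjusted p = 0.15). Of the 5 targets among the 49, Nkd1, Lef1 and Dkk1 had groups apart, as given above, while those of Axin2 and Lgr5 overlapped. Of all rows, 13.1% had groups apart with higher values in mutant brains.

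Markers of dividing cells differed between the genotypes in the same arrays. For the counts below, 2.34% of all rows rose and 4.13% fell. Of 14 genes of cycling cells, all 14 rose, with a median difference of 0.58, and their mean centred value lay between -0.43 and -0.19 in wild-type brains and between 0.20 and 0.37 in mutant brains. Ccnd1, a regulator of entry into S phase, moved in the same direction. Of 12 radial glia genes, 3 rose and 1 fell (median 0.11). Of 14 neuronal markers, 7 fell, with a median of -0.38 over the list. Among those that did not pass, Tubb3 (-0.03), Dcx (-0.03) and Map2 (-0.04) differed little. Of 8 astrocyte genes, 3 fell (median -0.23). These counts also hung on single arrays, above all on mutant replicate 2. In the fit that lacked it, 2 cycling-cell genes rose, no radial glia or astrocyte gene passed and 1 neuronal gene fell, with medians of 0.56, 0.08, -0.22 and -0.38. When wild-type replicate 2 was left out, 10 cycling-cell genes rose, 4 neuronal genes fell and again no radial glia or astrocyte gene passed. Without wild-type replicate 1, 4 neuronal genes and no astrocyte gene fell, and without mutant replicate 1, 11 neuronal genes fell. Leaving out mutant replicate 3 left 1 radial glia gene that rose and no astrocyte gene that fell. The part of these cell types in the rises of Wnt8b, Fzd2, Rspo2 and Rspo3 was not tested.

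The list of dorsal midline and cortical hem genes includes Wnt8b, Rspo1, Rspo2 and Rspo3, which that tissue expresses. Of 10 measured, 6 belong to the 49, and the 3 that rose were Rspo2, Rspo3 and Wnt8b themselves. The other 4, Msx1, Msx2, Gdf7 and Bmp7, did not pass in the limma fit, none was past an unadjusted p of 0.05, and their differences were 0.0074, 0.02, 0.11 and -0.13. The part of this tissue in the rises of Wnt8b, Rspo2 and Rspo3 was not tested. Of 8 choroid plexus genes none passed and 1 was past an unadjusted p of 0.05 (median -0.05), where 21.8% of all rows were past it. Meningeal genes fell in 2 of 12 cases (median -0.18) and endothelial genes in 2 of 12 (median -0.04). Of all rows, 4.13% fell and 2.34% rose. Of 8 thalamic genes 1 rose (median 0.05), which was Lhx9 at 0.60 or 1.51-fold (limma adjusted p = 0.034). Of 9 midbrain and hindbrain genes 1 rose (median 0.12), which was Tal2 at 0.75 or 1.68-fold (limma adjusted p = 0.013). Of 8 red-cell genes 2 rose (median 0.06). These 2, both embryonic globin genes, differed far more than any of the Wnt genes. The list's remaining 6 did not pass, with differences between -0.07 for Alas2 and 0.135 for Hbb-bh1. Hbb-bh1, also a globin gene, had a limma adjusted p of 0.13, and Slc4a1 differed by 0.07. Hbb-y stood at -2.18, -1.77 and -1.96 in wild-type brains and at 1.78, 1.77 and 1.91 in mutant brains, a rise of 3.79 ± 0.10 (SE) or 13.8-fold (limma adjusted p = 5.4e-06). Hba-x rose by 1.44 ± 0.07 (SE) or 2.72-fold (limma adjusted p = 0.00035). The part of red cells in the rises of the Wnt genes was not tested. With mutant replicate 2 left out, no meningeal, thalamic, midbrain or hindbrain gene passed, and 2 red-cell genes rose. Of all rows, 0.619% passed in that fit, and the shares in the other fits are given above. The meningeal count was 4 when mutant replicate 1 was left out and 1 for each of the other 4 arrays. The endothelial count stayed at 2 only when wild-type replicate 3 or mutant replicate 1 was left out, and was otherwise 1. No thalamic gene passed when wild-type replicate 2 or mutant replicate 3 was left out, and no midbrain or hindbrain gene when wild-type replicate 2 was. Of the choroid plexus genes, 1 rose without wild-type replicate 1 and 1 fell without mutant replicate 1. None of 8 microglial genes passed, also at an unadjusted p under 0.05 (median -0.01).

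**Figure D5:**
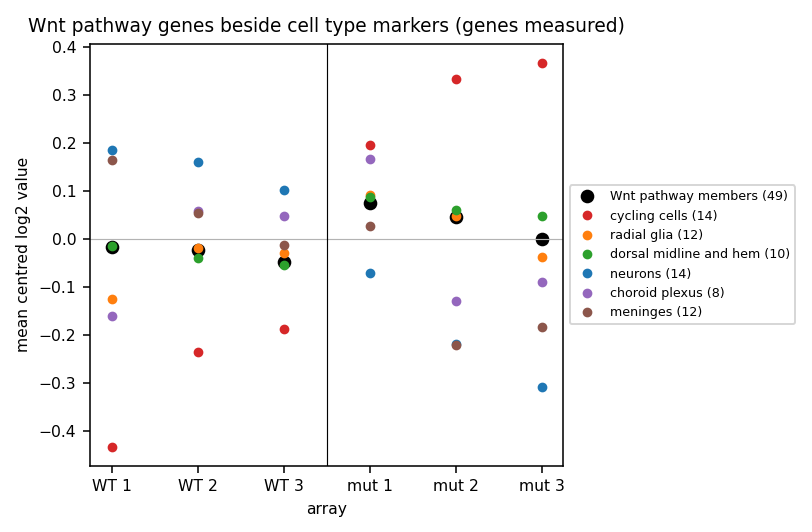
Mean centred log2 value of the 49 Wnt pathway genes and of 6 marker lists in each array, with the number of genes measured in brackets. The cycling-cell mean runs from -0.43 in wild-type replicate 1 to 0.37 in mutant replicate 3, while the mean of the Wnt genes stays between -0.05 and 0.07.

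Brains of 1 genotype differed among themselves in these genes. The median SD within genotype was 0.09 for the 49 genes and 0.07 over all rows. Sfrp2 (0.17), Fzd8 (0.16), Wnt5b (0.16) and Wnt3a (0.14) had the largest SDs. Mutant replicate 1 held the highest value of 17 of the 49 genes, more than any other array, and wild-type replicate 3 held the lowest of 15. Over all rows, mutant replicate 1 was highest in 14.2% and wild-type replicate 3 lowest in 20.9%. Among the R-spondin genes, the highest array was mutant replicate 1 for Rspo1, mutant replicate 2 for Rspo2 and mutant replicate 3 for Rspo3.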

How the data were processed

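RNA of 6 embryonic brains, 3 per genotype, was measured on 1 array each, and genotype and replicate number came from the sample titles. The authors made the deposited log2 values with Robust Multi-Array Average, as the series text says. Affymetrix Expression Console is the tool in the submitters' processing notes. The deposited table states no log base, and log2 is taken from that method. Row medians across the 6 arrays were all within 5e-07 of 0. No source used here describes this centring, and no filter on low values was possible. The level of probe summary and the array's build were not stated in the sources used.

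Of 28856 rows, 23410 named a gene and were tested, and 21789 named 1 gene. Gene identifiers gave current symbols from a RefSeq table. A gene with several rows was read from the row with most accessions. Mutant and wild-type arrays were compared in R 4.3.3 with limma 3.58.1 (lmFit, eBayes, two-sided, Benjamini-Hochberg over 23410 rows). A gene was called, and is said to rise or fall, at an adjusted p under 0.05. Errors are limma's moderated SEs and intervals cover 95% for 1 gene at a time. An exact permutation test of 3 against 3 arrays cannot go below 0.1 and was not used. In 10 simulated rounds of the comparison over 23410 rows, the fit recovered 78.6% of rows with a 1.25-fold change and 99.8% with a 1.5-fold change, and 3.66% of calls were false. In each round 200 rows were changed, and the SD of each row was first shrunk towards the mean of all rows on the log scale. Noise was drawn independently for each row and array, so these rates need not hold for the real arrays.

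The genes and lists were chosen with earlier results of these data known. All 6 values were to be given for called genes, for genes with groups apart by at least 0.25, for the 4 of widest spread, and for Ctnnb1, Axin2, Lef1 and Tdp2. From the second list and the target list the called genes and those of smallest p were named. For the marker lists, counts and medians were given instead, and most of their called genes were not named. Lgr4, Lgr6, Znrf3, Rnf43, Msx1, Msx2, Gdf7 and Bmp7 were named as partners or markers after their values were seen. So were Tubb3, Dcx, Map2, Hbb-bh1, Alas2 and Slc4a1 of the marker lists. Alternatives were a replicate block, each array left out, all rows, equal array medians, cyclic loess, array weights, a robust variance prior, a 1.5-fold limit and an adjusted p under 0.1. Figures were drawn with matplotlib 3.10.9.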

Additional observations from a re-analysis of the deposited data

How the results depend on the processing

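Over all rows that name a gene, 1515 passed, 725, 335 and 1165 without wild-type replicates 1, 2 and 3, and 2501, 145 and 596 without mutant replicates 1, 2 and 3. The count was 5425 with array weights, 150 with the 1.5-fold limit and 2751 at an adjusted p under 0.1. Of the 49 Wnt genes 4 passed, 0 to 5 with 1 array left out, 15 with array weights (12 higher and 3 lower), 0 with the 1.5-fold limit and 7 at an adjusted p under 0.1. Of the further pathway genes 3 passed, 0 to 11 with 1 array left out, 20 with array weights, 0 with the 1.5-fold limit and 9 at an adjusted p under 0.1. Of the target genes 1 passed, 1 to 2 with 1 array left out, 6 with array weights, 0 with the 1.5-fold limit and 2 at an adjusted p under 0.1. With all rows tested, equal array medians, cyclic loess or a robust variance prior, the same 4 Wnt genes passed. The median difference of all 49 Wnt genes stayed between 0.04 and 0.07 over all alternatives. With the replicate number as a block, 2400 rows, 6 Wnt genes (Ctnnb1 and Tcf7l1 added), 6 further pathway genes and 1 target gene passed. Same-numbered arrays deviated from their group means with correlations of 0.209, 0.047 and 0.198 over genes, and differently numbered arrays with -0.224 to 0.057. For replicates 1 and 3 the same-numbered correlation was the highest. Mutant replicate 2 correlated slightly better with wild-type replicate 3 (0.057) than with wild-type replicate 2 (0.047). Wild-type replicate 2 in turn correlated best with mutant replicate 2, against -0.016 with mutant replicate 1 and -0.016 with mutant replicate 3. No label says that the numbers mark the pairs of brains that the series text mentions. The main fit therefore did not take them as pairs, and whether they are was not settled. The causes of these shifts were not tested.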
